A study of Mus musculus with 3 samples.

Results

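The 49 listed genes lie along the distal part of mouse chromosome 14, with genes outside the list between some of them. This account follows the listed genes through 3 microarrays of WR19L, a mouse T-lymphoma cell line of BALB/c origin. The list was chosen from neighbouring genes on the DKO over parental ratios of these same arrays. It holds 13 genes of a proximal flank, from Fndc3a to Tpt1, and 36 genes of a stretch from Sugt1 to Tmtc4, out of 18194 genes named on the array. A member was kept where its brightest probe set, the group of short probes that reads 1 transcript, was at or above an array's median signal on 1 array or more. That left 43 of the 49 genes, all 13 of the flank and 30 of the stretch. One array was made from parental WR19L cells and the other 2 from cultures of DKO cells, a flippase-deficient line derived from WR19L. Both DKO cultures carried a stably expressed transgene, either human ATP11A of normal sequence, called wild-type here, or its Q84E mutant. All 3 cultures were left untreated and each group is 1 array, so the values have no replicates, groups could not be tested against each other and no p-value is given. DKO cells without a transgene were not analysed here. What the knockout, the transgene and the derivation of the line each contribute therefore cannot be told apart in a ratio of a DKO array over the parental array, and whether the DKO line is 1 clone is not given in the sources used here.

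ATP11A is a flippase, a membrane pump that turns phospholipids of the cell surface inward. The genes of the list are not known as a pathway and are joined by their place on the chromosome. Genes that neighbour each other share their DNA copy number and often a chromatin domain, and either can shift the transcripts of many neighbours together. Neither was analysed here. The best known gene of the region is Rb1, the retinoblastoma tumour suppressor that restrains entry into the cell cycle. Its neighbours in the list range from RNA-degrading enzymes and importins to regulators of mitosis.

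The deposited values are signals on a linear scale, and a log2 ratio below is the difference between the log2 signals of 2 arrays. Signals under the median of their array, 50.3 on the parental, 50.5 on the wild-type ATP11A and 55.5 on the Q84E array, were raised to that median, which is called the floor. The 75th percentile of the signal was 369, 373 and 392, and a gene is called bright here if its mean level over the 3 arrays reached the 75th percentile. The error of 1 probe set, taken from pairs of probe sets that read the same gene, was an SD of 0.34 in log2 ratio for wild-type ATP11A over parental between the 50th and 75th percentile of level. It was 0.18 between the 75th and 90th percentile and 0.10 above the 90th. For Q84E over parental the same SD was 0.35, 0.19 and 0.11. It does not cover differences between cultures. The endogenous Atp11a gene had a signal of 478 in parental cells and of 253 and 244 in the wild-type ATP11A and Q84E cultures, and its probe set need not lie inside an edited site. Of 9 T cell marker genes 8 had a probe set and 6 were above the floor on all arrays, among them Cd3d and Cd3g, while the probe sets of Cd3e and Cd4 were under it on all 3. The summed T cell marker signal was 18919 in parental, 12692 in wild-type ATP11A and 17275 in Q84E cells. Of the B cell, myeloid, erythroid, epithelial and stromal markers, 2 genes in all were above the floor on every array.

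Along the chromosome, the stretch lay below the parental level in both DKO arrays. The flank lay near that level with wild-type ATP11A, while part of it was higher with Q84E. These ratios are what the list was chosen on, so they are given as a description. The 30 stretch genes had a median log2 ratio of -0.75 for wild-type ATP11A over parental, 59.5% of the parental signal, and of -0.78 for Q84E over parental, 58.3%. The 13 flank genes had medians of -0.07 and 0.18. With wild-type ATP11A 1 of them was at least 25% higher than parental, and with Q84E 5 were. Over all 11596 genes compared, 1290 and 2230 were, and the medians were 0.01 and 0.07. Both DKO ratios share the parental array, so they are not independent of each other. Of the 30 stretch genes 24 were at 80% of the parental signal or less in both DKO arrays, against 4.15% of all compared genes, and 20 were at least 1.5-fold lower in both, against 1.37%. In the flank 0 of 13 passed either limit.

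**Figure D1:**
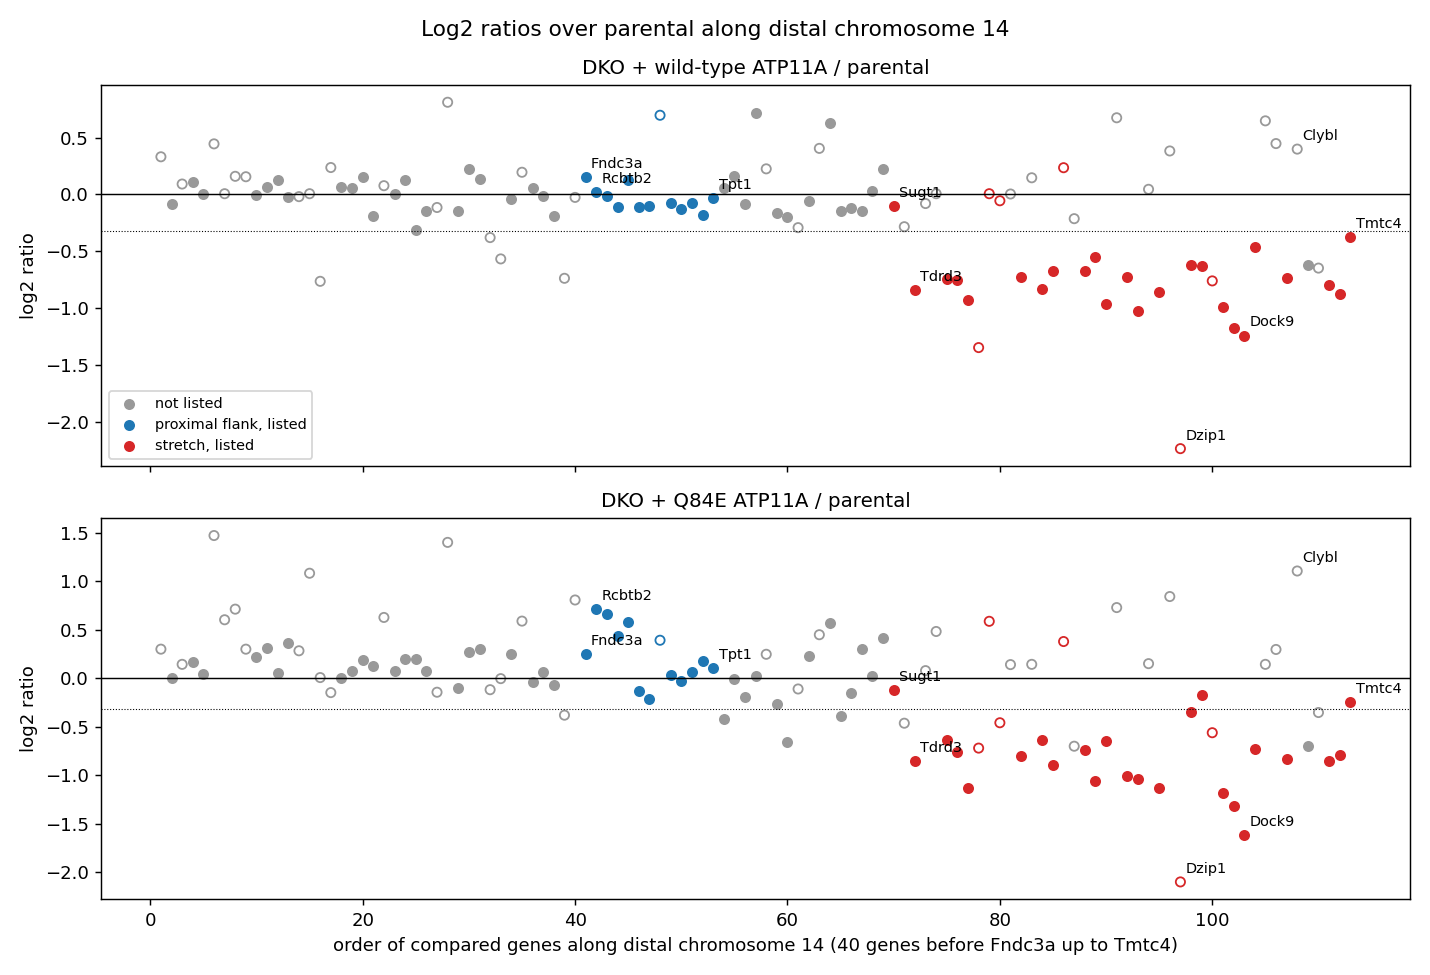
Log2 ratio of each DKO array over the parental array (vertical axis) for the compared genes of distal chromosome 14 in RefSeq order (horizontal axis), with flank genes of the list in blue, stretch genes in red and genes outside the list in grey. Filled points are bright genes, open points are dim ones, the dotted line is 80% of the parental signal, and the red points drop from Tdrd3 on while Sugt1 stays at -0.10 and -0.13.

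The change of level lay between Sugt1 and Tdrd3. Sugt1, a co-chaperone of HSP90 and of ubiquitin ligases, is listed in the stretch but had signals of 3055 in parental, 2846 in wild-type ATP11A and 2797 in Q84E cells. Its log2 ratios of -0.10 and -0.13 were close to the error of 1 probe set. Tdrd3, a Tudor-domain protein that reads methylated arginine, is the next listed gene. Its signals were 1250, 699 and 691, or log2 ratios of -0.84 and -0.86. By this probe set both DKO arrays lay together, under the parental one. The other Tdrd3 probe set above the floor was dimmer, at 116, 96.6 and 73.1, or -0.26 and -0.66. The mean of its probe sets gave -0.33 and -0.49. Diaph3, a formin that builds actin filaments, is the only compared gene between them and is not in the list. It was dim, at 266, 219 and 193, with log2 ratios of -0.28 and -0.46.

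On the proximal side of Sugt1, 16 compared genes between Tpt1 and Sugt1 are not in the list either. Their medians were -0.01 and 0.01. At 80% of parental or less in both DKO arrays were 0 of 16, against 4.15% of all compared genes. With 16 genes, 0 lies near that share. Still nearer the centromere, 318 genes of chromosome 14 had medians of 0.02 and 0.09. At the other end, Tmtc4, a mannosyltransferase of the endoplasmic reticulum, was the last compared gene, at 959, 739 and 810. Its log2 ratios were -0.38 and -0.24, the smallest of the listed genes distal to Mbnl2, and its dimmer probe set gave -0.10 and 0.19. RefSeq places 3 protein-coding genes beyond it, Nalcn, Itgbl1 and Fgf14, and no probe set of theirs reached the floor on any array, so the distal end of the shift cannot be seen.

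The list leaves out some genes of the stretch. Between Sugt1 and Tmtc4 44 genes were compared, of which 14 are not listed, and 13 of these 14 were dim. The unlisted genes had medians of 0.03 and 0.14. The floors of the Q84E and parental arrays themselves differ by 0.14, so this median measures no difference in level. Zic5, a zinc-finger transcription factor, was the single bright gene among them. Its signals were 995, 647 and 615, and its log2 ratios of -0.62 and -0.70 were within the range of the listed genes. Its neighbour Zic2 was at 308, 197 and 241, or -0.65 and -0.35. Clybl, a mitochondrial enzyme of citramalyl-CoA breakdown, went the other way, at 171, 226 and 369, with log2 ratios of 0.40 and 1.10. With all 44 genes the medians were -0.64 for both comparisons, and with the 25 bright ones -0.74 and -0.80. Of these 25 genes 24 are listed and were chosen on these ratios, so their counts are a description. All 25 were lower than parental in both DKO arrays, against 31.9% of bright genes anywhere. At least 1.5-fold lower in both were 19 of the 25, against 0.633%.

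Read from the other side, 42 bright genes of the whole genome were at least 1.5-fold lower in both DKO arrays. Of them 19, or 45.2%, lay between Sugt1 and Tmtc4. All but Zic5, 18 genes, are listed and were chosen on these ratios, so the shares here are a description. Of the 25 bright genes of the interval 3 were at least 2-fold lower in both, 12.0%, against 0.196% of all bright genes. They were 3 of the 13 such genes in the genome, 23.1%. Over 20 chromosomes, the median ratio of the bright genes ran from -0.01 to 0.03 for wild-type ATP11A and from -0.03 to 0.07 for Q84E. In windows of 20 neighbouring bright genes, the lowest window on chromosome 14, from Dis3 to Ggact, had medians of -0.77 and -0.84. The lowest windows of the other 19 chromosomes had medians between -0.13 and -0.02 for wild-type ATP11A and between -0.15 and -0.04 for Q84E.

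**Figure D2:**
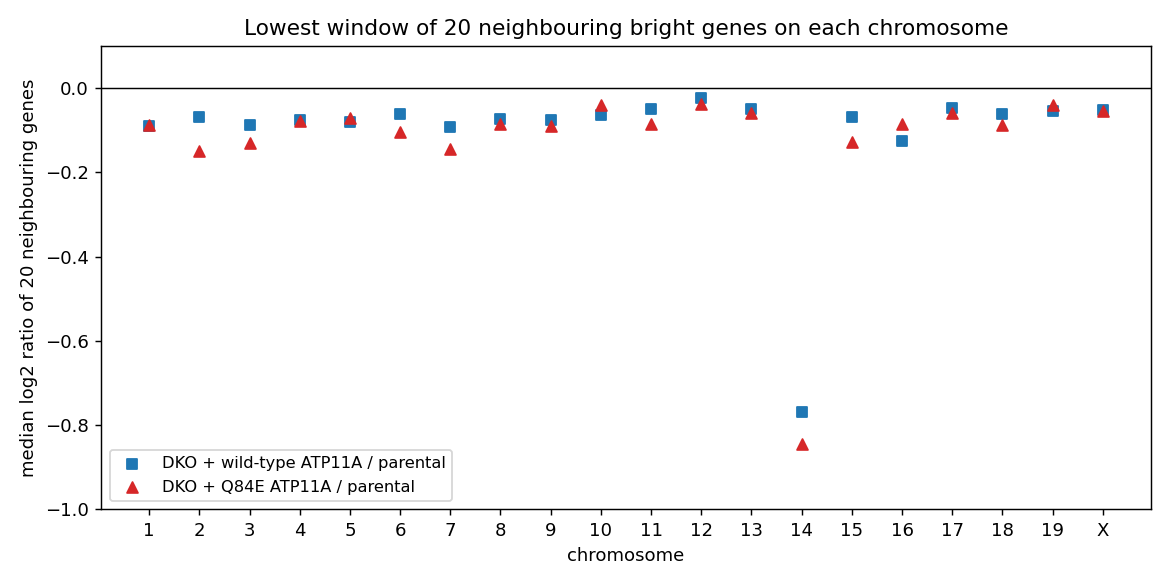
For each chromosome (horizontal axis), the lowest window of 20 neighbouring bright genes, shown by its median log2 ratio over parental (vertical axis) for wild-type ATP11A (squares) and Q84E DKO cells (triangles). Each window was taken where the higher of both medians was lowest, and chromosome 14 lies at -0.77 and -0.84 while every other chromosome lies at -0.15 or above.

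The stretch genes of GTPase and kinase signalling included the bright genes furthest from parental. Dock9, an exchange factor that activates the GTPase Cdc42, had signals of 868 in parental, 367 in wild-type ATP11A and 283 in Q84E cells. That is 42.3% and 32.6% of parental, or log2 ratios of -1.24 and -1.62. All 3 Dock9 probe sets above the floor were lower, between -1.24 and -1.06 for wild-type ATP11A and between -1.62 and -1.04 for Q84E. Its neighbour Stk24, a kinase of the STE20 family, was at 1596, 708 and 642, or 44.4% and 40.2% of parental. The other Stk24 probe set was lower still, at -1.55 and -1.86. Slain1, which promotes microtubule growth, was at 1173, 734 and 630, with ratios of -0.68 and -0.90. Rap2a, a small GTPase of the Ras family, was dimmer, at 339, 200 and 230. All 4 genes of this group were at 80% of parental or less in both DKO arrays, against 4.15% of all compared genes. So were 24 of the 30 stretch genes. The list was chosen on these ratios, so the counts by role, here and below, are a description.

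The promoters of the extreme bright genes are shown next so that the control regions of genes far below parental can be set beside those of genes near it. Each is the 250 bases before the RefSeq start site, from the outermost start in the table, written 5′ to 3′ along the gene's strand in build GRCm38.p6. Capitals mark matches, on either strand, to the letters of 5 common promoter motifs. These are the TATA box TATAAA, the CCAAT box CCAAT, the GC box GGGCGG, the E box CACGTG and the ETS motif CGGAAG, of which the GC box and the ETS motif can share letters. Dock9 and Ipo5 are among the 3 bright stretch genes furthest below parental by the mean of both DKO ratios, Sugt1 is the nearest to parental, and Tpt1 is the last gene of the flank.
Dock9, chr14:121797735-121797984, minus strand: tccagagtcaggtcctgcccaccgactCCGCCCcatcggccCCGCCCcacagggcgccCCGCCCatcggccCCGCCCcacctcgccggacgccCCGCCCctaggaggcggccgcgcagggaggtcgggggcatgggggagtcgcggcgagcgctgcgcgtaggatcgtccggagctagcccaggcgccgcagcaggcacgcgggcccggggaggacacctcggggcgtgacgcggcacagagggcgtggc
Ipo5, chr14:120910944-120911193, plus strand: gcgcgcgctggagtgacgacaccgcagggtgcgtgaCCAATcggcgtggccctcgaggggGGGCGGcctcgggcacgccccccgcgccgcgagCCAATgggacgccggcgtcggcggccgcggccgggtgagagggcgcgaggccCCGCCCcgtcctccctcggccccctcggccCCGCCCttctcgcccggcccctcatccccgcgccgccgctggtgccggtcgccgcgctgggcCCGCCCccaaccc
Sugt1, chr14:79587410-79587659, plus strand: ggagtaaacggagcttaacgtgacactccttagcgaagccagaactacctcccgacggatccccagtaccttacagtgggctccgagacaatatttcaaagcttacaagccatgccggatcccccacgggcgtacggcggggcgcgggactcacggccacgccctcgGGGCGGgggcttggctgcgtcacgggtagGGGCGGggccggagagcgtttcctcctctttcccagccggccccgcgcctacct
Tpt1, chr14:75845006-75845255, plus strand: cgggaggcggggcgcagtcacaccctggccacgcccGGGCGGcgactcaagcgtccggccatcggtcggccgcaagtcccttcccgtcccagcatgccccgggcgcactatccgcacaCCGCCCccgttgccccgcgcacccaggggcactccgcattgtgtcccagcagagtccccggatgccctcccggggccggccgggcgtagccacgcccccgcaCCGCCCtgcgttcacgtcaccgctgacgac
The GC box was the motif that all 4 shared, with 5 matches in Dock9, 4 in Ipo5, 2 in Sugt1 and 3 in Tpt1, and Ipo5 also held 2 CCAAT boxes. The GC content was 78.8%, 82.4%, 65.2% and 75.6%. Of the 26 kept stretch genes with a promoter in the table, 20 held a GC box, 14 a CCAAT box, 9 an ETS motif, 2 a TATA box and 2 an E box. Of the 11 flank genes with one, 9 held a GC box, 2 a CCAAT box, 3 an ETS motif and 0 a TATA box or an E box. Among the 9397 compared genes with a promoter the shares were 58.5%, 36.4%, 25.9%, 6.46% and 8.51%, and among all 27025 promoters of that length 33.0%, 34.5%, 13.8%, 13.0% and 6.04%. The median GC content was 64.2% for the stretch, 61.2% for the flank and 59.6% for the compared genes. A match is a run of letters and shows no binding.

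Genes of RNA metabolism came next. Dis3, the catalytic ribonuclease of the RNA exosome, had signals of 5898, 3101 and 2682, which is 52.6% and 45.5% of parental. Rbm26, an RNA-binding protein, was at 1546, 1056 and 743. Its 4 probe sets ran from -1.28 to -0.55 for wild-type ATP11A and from -1.20 to -0.96 for Q84E, so the wild-type value depended on the probe set. Mbnl2, a splicing regulator of the muscleblind family, was at 501, 323 and 443. Its wild-type ATP11A ratio of -0.63 and its Q84E ratio of -0.18, 88.5% of parental, differed in size. Its second brightest probe set had 416, 177 and 292, or -1.23 and -0.51. The next had 222, 139 and 216, or -0.68 and -0.04, so the size of the gap depended on the probe set. A further Mbnl2 probe set, at 89.0, 103 and 109, was slightly above parental in both.

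The spindle and centrosome group had 4 kept members. All 4 were at 80% of parental or less in both DKO arrays, against 4.15% of all compared genes. Mzt1, a small subunit of the gamma-tubulin ring complex that nucleates microtubules, was at 3870, 2317 and 2484. Its 3 probe sets above the floor on all arrays ran between -0.84 and -0.68 for wild-type ATP11A and between -0.68 and -0.64 for Q84E. A dim Mzt1 probe set, at 54.6, 16.9 and 62.6, was under the floor with wild-type ATP11A and gave -0.11 and 0.20. Bora, which helps Aurora A to activate the mitotic kinase Plk1, was at 885, 524 and 522. The other Bora probe set gave 737, 392 and 628, so the Q84E value ranged from -0.76 to -0.23 by probe set. Pibf1, a protein of centriolar satellites, was dim, at 237, 93.0 and 144. Another Pibf1 probe set lay near the floor, at 57.5, 54.2 and 46.6, and gave -0.09 and -0.05. The mean of the Pibf1 probe sets gave -0.72 and -0.38. Dzip1, a zinc-finger protein of the ciliary base, was at 238 in parental cells and at 23.0 and 29.6, under the floor, in the DKO arrays. It was thus at least 4.71-fold lower with wild-type ATP11A and at least 4.29-fold lower with Q84E. Dzip1 passed the filter only through the parental array, so it could only be found lower. Of its other probe sets, those at 94.2 and 106 in parental cells were also under the floor in both DKO arrays.

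The ubiquitin and protein folding group had 7 kept members. All but Sugt1, 6 genes, were at 80% of parental or less in both DKO arrays, against 4.15% of all compared genes. Mycbp2, a very large ubiquitin ligase, was at 3326, 1863 and 2133. All 7 of its probe sets were lower in both DKO arrays, between -1.05 and -0.31 for wild-type ATP11A and between -0.95 and -0.46 for Q84E. Obi1, a ubiquitin ligase of replication origins, was at 1229, 768 and 736. Commd6, of the COMMD family of endosomal sorting proteins, was at 912, 552 and 524. Both genes lay near 60% of parental on both arrays, at 62.5% and 59.9% for Obi1 and at 60.5% and 57.5% for Commd6. Ndfip2, an adaptor of NEDD4-type ligases, was at 1220, 625 and 779. A dim Ndfip2 probe set at 64.4, 114 and 102 went the other way. Dnajc3, a co-chaperone of the endoplasmic reticulum, was at 3560, 2313 and 2798, and its 5 probe sets were all lower, between -0.85 and -0.42 and between -0.52 and -0.18. Ubac2, a membrane protein of the endoplasmic reticulum, was at 776, 564 and 466, while its dimmer probe set gave -1.13 and -1.55.

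The metabolic and transport group had 5 kept members in the stretch. All 5 were at 80% of parental or less in both DKO arrays, against 4.15% of all compared genes. Pcca, a subunit of the mitochondrial propionyl-CoA carboxylase, was at 1625, 933 and 899, or 57.4% and 55.3% of parental. Ggact, a cyclotransferase that breaks down crosslinked amino acids, was at 1025, 560 and 591. Tgds, an enzyme related to nucleotide-sugar dehydratases, was at 679, 411 and 338. These 3 genes had log2 ratios between -0.87 and -0.73 for wild-type ATP11A and between -1.01 and -0.79 for Q84E. Ipo5, an importin that carries ribosomal proteins and histones into the nucleus, had the highest parental signal of the stretch. It was at 7899, 3964 and 3469, or 50.2% and 43.9%. Tm9sf2, a membrane protein of Golgi and endosomes, was at 6504, 3901 and 3647, and all 3 of its probe sets above the floor were lower.

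The stretch had 4 kept receptors and membrane proteins. Of these, Gpr180 and Abcc4 were at 80% of parental or less in both DKO arrays, against 4.15% of all compared genes. Ednrb and the bright Tmtc4, whose Q84E signal was 84.4% of parental, were not. Gpr180, an orphan receptor, was at 995, 488 and 484, or 49.0% and 48.6% of parental. Abcc4, an exporter of cyclic nucleotides and drugs, was at 1918, 1056 and 872. Both were close to 2-fold lower on both DKO arrays. Ednrb, the endothelin B receptor, was near the floor, at 60.4, 71.1 and 78.5, with log2 ratios of 0.23 and 0.38. Its other probe set past the filter had -0.12 and -0.28, so its direction depended on the probe set. The transcription factor Klf12 was at 76.4, 73.4 and 37.1, of which the last is under the floor. Klf5, of the same family, passed the filter only through the Q84E array, at 75.5. Its parental and wild-type signals of 49.97 and 28.7 were under the floor, so its wild-type ratio measures only the floors.

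**Figure D3:**
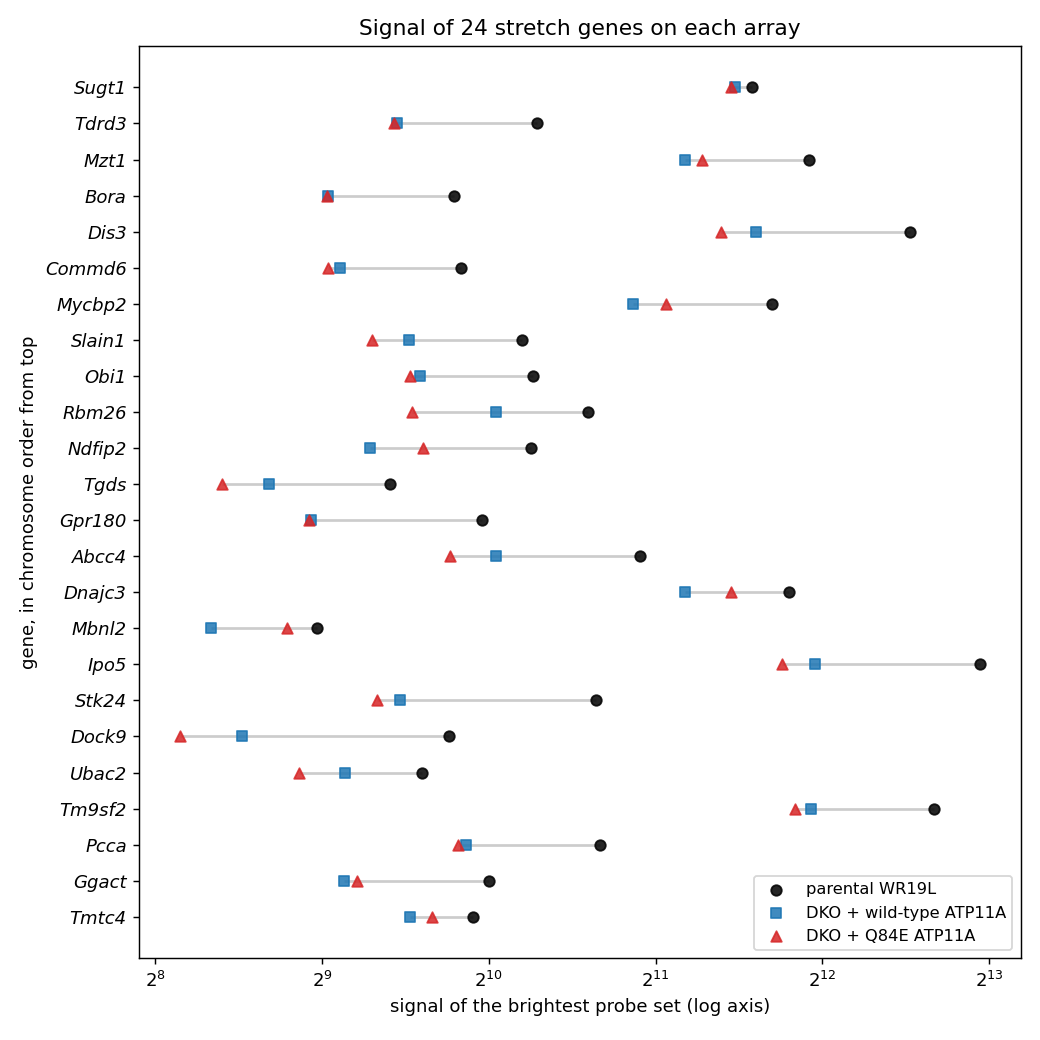
Signal of the brightest probe set (horizontal axis, log scale) on each of the 3 arrays for the 24 stretch genes whose parental signal reached the 75th percentile, in chromosome order from the top (vertical axis). The parental point is the rightmost in every row, and by the mean of both DKO ratios the smallest gaps belong to Sugt1 and Tmtc4. The genes were listed on their DKO over parental ratios and taken here by parental signal, so this order is a description.

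The 24 bright stretch genes had medians of -0.75 and -0.82. All 24 were below parental in both arrays, against 31.9% of bright genes. Their ratios ran from -1.24 to -0.10 for wild-type ATP11A and from -1.62 to -0.13 for Q84E. The 14 members from Tdrd3 to Ndfip2 had medians of -0.73 and -0.73, and the 15 members from Tgds to Tmtc4 had -0.80 and -0.85. By probe set, 61 in the stretch were above the floor on all 3 arrays, and 57 of them were lower in both DKO arrays than in parental cells, against 30.8% of the 17670 such probe sets on the array. The other 4 were the probe sets of Ednrb, Ndfip2, Mbnl2 and Tmtc4 named above. Of 26 such probe sets in the flank, 6 were lower in both. The list was chosen on these ratios and several probe sets can read the same gene. The counts by gene and by probe set are therefore a description.

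Members near the rule's limit were few. Just inside it lay Klf5, Klf12 and Ednrb, with highest signals of 75.5, 76.4 and 78.5. Outside it were Lmo7, Spry2, Gpc6, Uggt2 and Farp1, whose brightest probe sets by mean log2 signal stayed under the floor on all arrays. Also outside was Uchl3, which no probe set names alone. Another Gpc6 probe set was just above the floor in parental cells, at 53.8, and under it in the DKO arrays, at 5.02 and 33.5. Spry2, a feedback inhibitor of growth factor signalling, reached at most 16.2, 24.1 and 40.8. No ratio is given for these 6.

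In the flank, the arrays differed in another way. Rcbtb2, a protein with RCC1 repeats and a BTB domain, had signals of 3817 in parental, 3877 in wild-type ATP11A and 6250 in Q84E cells. Its neighbour Rb1 was at 572, 564 and 905. Lpar6, a receptor for lysophosphatidic acid whose RefSeq span lies inside that of Rb1, was at 2151, 1991 and 2908. The log2 ratio of wild-type ATP11A over parental was 0.02 for Rcbtb2, -0.02 for Rb1 and -0.11 for Lpar6, and Q84E cells were above both other arrays for all 3 genes. Itm2b, the integral membrane protein next in order, was at 8018, 8754 and 11986, also highest in Q84E cells. For Q84E over wild-type ATP11A these 4 genes were 1.61-fold, 1.60-fold, 1.46-fold and 1.37-fold higher. Of the 13 flank genes they were the 4 that were at least 25% higher in Q84E cells than on both other arrays, against 10.4% of all compared genes. They are neighbours in the list. Of the 4 Rcbtb2 probe sets above the floor, the 3 brightest had ratios of 0.69, 0.77 and 0.55 and the dimmest had -0.08, and the second Itm2b probe set was at 2857, 3147 and 3984.

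The genes on both sides of this run differed less between the DKO arrays. Fndc3a, a fibronectin-domain protein, was at 423, 469 and 502, with a Q84E over wild-type ratio of 0.10. Med4, a subunit of the Mediator complex, was at 1985, 1834 and 1814, with a ratio of -0.02. Sucla2, a subunit of succinate-CoA ligase in mitochondria, was at 5950, 5528 and 5125. The dim Lrch1, a protein with leucine-rich repeats, had 269, 436 and 353 by its brightest probe set and 109, 69.0 and 118 by another, so its probe sets disagreed.

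The other flank genes stayed near parental. Lcp1, the leukocyte actin bundler L-plastin, was at 6085, 5777 and 6206. Zc3h13, a subunit of the complex that methylates adenosine in RNA, was at 688, 629 and 674. Cog3, a Golgi tethering subunit, was at 1191, 1126 and 1246. All 3 had between 91.5% and 104.7% of the parental signal in both DKO arrays. Slc25a30, a mitochondrial carrier, was at 1326, 1172 and 1498 by its brightest probe set, and its 4 probe sets above the floor ran from -0.77 to 0.18 for Q84E over parental. Tpt1, the abundant translationally controlled tumour protein, was at 35678, 34855 and 38237, the highest signals of the list.

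The contrast of Q84E with wild-type ATP11A cells is the difference of the 2 DKO ratios on which the stretch was chosen. That choice bears on this contrast too, so its counts are given as a description. There 17 of the 24 bright stretch genes were below 0, against 48.1% of bright genes, and their median log2 ratio was -0.06, against 0.01 over all bright genes. Of these 24 genes 2 were at 80% of the wild-type ATP11A signal or less in Q84E cells, against 3.90% of bright genes, and 1 was at least 25% higher, against 7.82%. Rbm26 and Dock9 were the 2 lower ones, at -0.51 and -0.38. The other 3 Rbm26 probe sets ran from -0.37 to 0.13, and the other 2 of Dock9 had -0.06 and 0.02. Mbnl2 was the higher one, at 0.46, and 2 further Mbnl2 probe sets had 0.64 and 0.72. Between the DKO cultures 12 of the 24 genes differed by no more than the error of 1 probe set and 20 of 24 by no more than 2 such errors, against 57.3% and 85.6% of all bright genes.

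**Figure D4:**
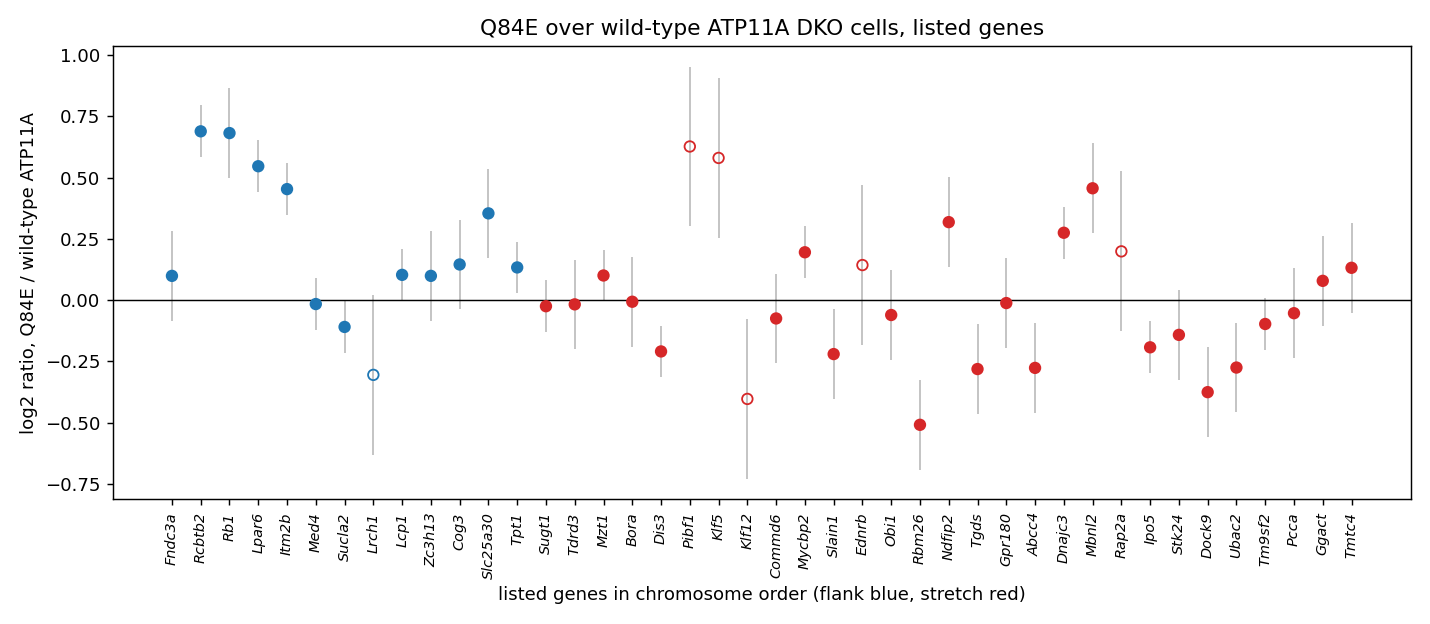
Log2 ratio of Q84E over wild-type ATP11A DKO cells (vertical axis) for the listed genes in chromosome order (horizontal axis), with flank genes in blue, stretch genes in red, dim genes as open circles and bars for the error of 1 probe set at that level (SD). Rcbtb2, Rb1, Lpar6 and Itm2b stand at 0.69, 0.68, 0.55 and 0.45, while the bright stretch genes lie between -0.51 and 0.46. Dzip1, under the floor on both arrays, is left out, and Klf5 and Klf12 each have 1 array under the floor.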

How the data were processed

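Biotinylated cRNA from 250 ng of total RNA was hybridised to Affymetrix arrays, per the labels' protocols. The deposited values are intensity signals per probe set, which the authors computed by MAS5 according to the submitters' processing notes, and their trimmed mean, leaving out 2% at each end, was 500.0 on each of the 3 arrays. That scaling was kept. A single factor per array can spread a shift of many genes over the others. Of 45101 probe sets, 34958 had exactly 1 gene symbol in the platform table, 932 had several and 9211 were not listed there, and the latter 2 kinds were not used. Each gene took the probe set with the highest mean log2 signal, and 11596 of 18194 genes passed the filter described above. RefSeq GRCm38.p6 gave gene order for 11535 of them and the promoters, and no coordinates of array features are printed, as the sources used here name no build. Ratios are differences of log2 signals after the floor at the 50th percentile. The error of 1 probe set is the SD of ratio differences between probe sets of a gene within 1 log2 unit in level, scaled to 1 probe set. Genes were counted by size alone. The steps were tested on simulated data. Python 3.11.15 with numpy 2.4.6 and pandas 2.3.3 was used. The members and lists were chosen with earlier results of these data known. Signals were printed for members with a parental signal at or above the 75th percentile, for the edge members and for members whose directions disagree. The promoters were those of the 3 lowest and the highest such stretch genes and of Tpt1, and Stk24 had no entry in the promoter table.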

Additional observations from a re-analysis of the deposited data

Results flagged for a closer look

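Lpar6 had log2 ratios over parental of -0.11 with wild-type ATP11A and 0.43 with Q84E, opposite in direction and each larger than the error of 1 probe set. It is the single kept member of which this was true. With quantile normalization its wild-type ATP11A ratio of -0.101 was no longer larger than the error of 0.103, and its Q84E ratio was 0.46. The difference rests on 1 array per group and was not tested.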

How the results depend on the processing

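Alternatives for the scaling (quantile normalization, arrays centred on a common median), the probe set (mean of all, without the less specific ones), the filter (75th percentile, none) and the floor (none, offset of 16) were tried. With 1 array per group none could leave out a replicate. No paired analysis was possible because each group has 1 sample. Under these 8 alternatives the medians of the stretch and of the flank in the 3 comparisons moved by no more than the error of 1 probe set above the 90th percentile of level. The count of 24 stretch genes at 80% of parental or less in both DKO arrays ran from 21 to 25, and that of flank genes was 0 throughout. Added after seeing the data, all 44 compared genes of the stretch, listed or not, gave medians of -0.64 for wild-type ATP11A and -0.64 for Q84E over parental. Of 670 values of single members, 630 moved by no more than the error of 1 probe set, 38 moved by more, 27 of these with the mean of probe sets, and 2 reversed. Both were Ndfip2 without the less specific probe sets, at 0.82 for wild-type ATP11A and 0.66 for Q84E over parental, where the remaining brightest probe set was the dim one. Low signal limits Dzip1, whose fold is a bound, and Klf5, Klf12 and Ednrb, which lay near the floor.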
